A study of Homo sapiens with 2 samples.

Results

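The proteasome genes of HCT116 cells were compared between cells transfected with an siRNA against KAT7 (siKAT7) and cells transfected with a non-specific siRNA (siControl). HCT116 is an established line of human colon carcinoma cells, of genotype WT per the labels in both groups, and Lipofectamine 2000 carried the siRNA in both. KAT7, also named HBO1, is a histone acetyltransferase. Total RNA taken up in TRIzol was sequenced, with 1 library in each group. A row belonged to the proteasome genes when its name was PSM, a letter from A to G and a number. This rule found 48 genes among 60623 rows with a gene name (60954 rows in all), and it used no measured value. The other genes of the complex under other names, such as POMP and ADRM1, are described separately. Of the 48 genes, 46 passed a filter of a mean of at least 1 CPM (counts scaled to library size), as did 13217 genes in all.

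The proteasome is the protease of the cytosol and nucleus that degrades proteins marked with ubiquitin. Its core is a barrel of stacked rings, with outer rings of alpha subunits (PSMA genes) that gate the entrance and inner rings of beta subunits (PSMB genes), some of which cut peptide bonds. A regulatory particle made of a base, with a ring of ATPases (PSMC genes) that unfold substrates, and a lid (most PSMD genes), which removes ubiquitin, sits on the core. Other activators (PSME genes) can take the place of the regulatory particle, and assembly chaperones (PSMG genes and a few PSMD genes) help to build both parts without staying in them.

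Sequencing depth, the sum of expected counts over all rows with a gene name, was 23533134 in siKAT7 and 23450326 in siControl. KAT7 itself had 287 expected counts in siKAT7 and 443 in siControl, or 12.7 and 18.2 CPM, which gave a log2 ratio (siKAT7 over siControl) of -0.52 with a 95% counting interval of -0.74 to -0.31. Epithelial markers of the labelled line were present in both libraries. EPCAM was at 174 CPM in siKAT7 and 174 CPM in siControl, and KRT8, KRT18, KRT19 and CDH1 lay between 106 and 5871 CPM in siKAT7 and between 91.6 and 5720 CPM in siControl. The blood marker PTPRC and the endothelial marker PECAM1 had 0 counts in both libraries. Of the fibroblast markers, COL1A2 had 1 count in siKAT7 and 0 in siControl, and COL1A1 was at 31.1 CPM in siKAT7 and 31.2 CPM in siControl. With 1 library per group no value has a replicate check, no test was possible, and intervals cover counting error only. A ratio in bulk RNA cannot tell fewer cells of one kind from less RNA per cell.

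As a whole the proteasome genes were near the middle of all genes. Their counts made up 0.615% of the siKAT7 library (exact 95% interval 0.612% to 0.618%) and 0.634% of the siControl library (0.631% to 0.638%). These are shares of total counts. Under scaling by total counts the median log2 ratio of all genes tested was itself -0.11. The median log2 ratio of the 46 genes tested was 0.03, against -0.0049 for all genes tested, and the ratios ran from -0.46 for PSMD6 to 0.66 for PSMB8. A log2 ratio above 0 was found for 25 of the 46, where 49.3% of all genes tested had one. A gene was called at a given fold when its interval also excluded 0. At 1.5-fold, 1 proteasome gene was called higher in siKAT7 (PSMG4) and 0 were called lower, where 3.91% of all genes tested were called higher and 3.91% lower. At 1.2-fold, 5 were called higher (PSMB6, PSMB7, PSMB9, PSMB10 and PSMG4), where 13.1% of all genes were, and 6 were called lower (PSMA1, PSMC1, PSMC6, PSMD6, PSMD10 and PSME3), where 13.4% of all genes were. As shares of the 46, the 1.2-fold counts lie near those of all genes.

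The balance depended on how the libraries were scaled. The ratios, CPM values and calls above use TMM scaling, and the shares of the library do not. Scaling by total counts moved the log2 ratios of all genes by a median of -0.11, and 17 of the 46 proteasome genes were then above 0. The 8 genes that passed below 0 were PSMA5, PSMB2, PSMC3, PSMC4, PSMD4, PSMD9, PSMD12 and PSME1. Relative to the median of all genes, the median of the proteasome genes was 0.03 higher under both scalings. Under total-count scaling PSMB9 and PSMG4 were called higher at 1.2-fold, and 9 genes were called lower, namely the same 6 with PSMD2, PSMD5 and PSMD11. Of all genes, 7.1% were called higher and 23.5% lower under that scaling.

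**Figure D1:**
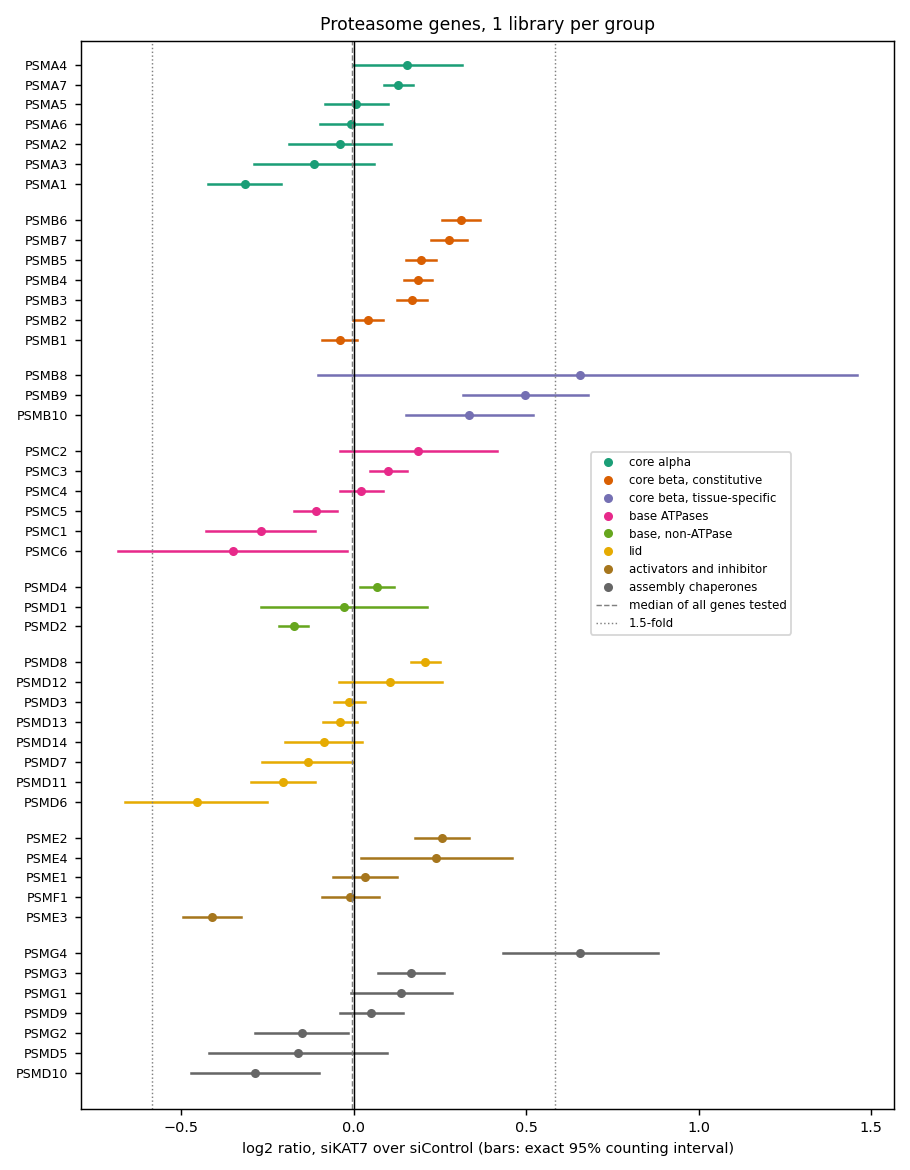
Log2 ratio of each of the 46 proteasome genes tested, siKAT7 over siControl, in groups of subunits. Points are the ratios from 1 library per group, bars are exact 95% counting intervals, the dashed line is the median of all genes tested and dotted lines mark 1.5-fold; 9 of the 10 core beta genes lie above 0, and PSMG4 is the only gene past 1.5-fold with an interval that excludes 0 (8 beta genes and 0 genes under total-count scaling).

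Promoters are shown first for the genes on which the results turn. PSMG4, PSMB9, PSMB10 and PSME2 had the highest ratios in their groups or were called higher, and PSME3 and PSMD6 had the lowest ratios. RefSeq promoter entries of GRCh38.p14, each reaching from 250 bases before to 50 bases after a gene's start, were matched by symbol for 42 of the 48 genes (51 entries). PSMA7, PSMB1, PSMB6, PSMB7, PSMD4 and PSMG3 had no entry in the table used. Each line below gives the 250 bases before the start used in the RefSeq entry, 5′ to 3′ on the gene's strand. Capitals mark matches on either strand to the ISRE core, GAAA and GAAA with any 2 bases between them (an element bound by interferon regulatory factors) in PSMG4, PSMB10 and PSME2. They mark TGACNNNGC (the antioxidant response element, bound by NFE2L1 and its relatives) in PSMB9 and PSME2, CCAAT (bound by NF-Y) in PSMB9, PSME3 and PSMD6, CCGGAA (bound by ETS factors) in PSMG4, PSME3 and PSMD6, and CACGTG (the E-box) in PSME3. Matches to other motifs are not marked, such as TTCNNNGAA (bound by STAT factors), which begins 230 bases before the start in PSME3.
PSMG4, chr6:3258697-3258946, forward strand: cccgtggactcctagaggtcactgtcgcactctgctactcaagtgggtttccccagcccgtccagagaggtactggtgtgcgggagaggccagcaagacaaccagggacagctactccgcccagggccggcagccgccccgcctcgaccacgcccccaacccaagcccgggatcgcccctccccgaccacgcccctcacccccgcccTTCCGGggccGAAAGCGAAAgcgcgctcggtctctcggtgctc
PSMB9, chr6:32853942-32854191, forward strand: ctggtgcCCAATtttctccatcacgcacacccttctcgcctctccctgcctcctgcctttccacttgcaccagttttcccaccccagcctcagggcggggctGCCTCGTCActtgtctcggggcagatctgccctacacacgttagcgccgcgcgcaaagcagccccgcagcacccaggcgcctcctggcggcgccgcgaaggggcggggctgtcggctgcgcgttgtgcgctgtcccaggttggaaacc
PSMB10, chr16:67936851-67937100, reverse strand: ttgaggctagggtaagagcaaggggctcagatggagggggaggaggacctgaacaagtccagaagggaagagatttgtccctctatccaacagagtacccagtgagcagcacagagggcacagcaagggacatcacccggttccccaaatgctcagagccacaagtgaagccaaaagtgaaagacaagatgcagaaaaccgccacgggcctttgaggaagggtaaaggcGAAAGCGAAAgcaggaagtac
PSME2, chr14:24146611-24146860, reverse strand: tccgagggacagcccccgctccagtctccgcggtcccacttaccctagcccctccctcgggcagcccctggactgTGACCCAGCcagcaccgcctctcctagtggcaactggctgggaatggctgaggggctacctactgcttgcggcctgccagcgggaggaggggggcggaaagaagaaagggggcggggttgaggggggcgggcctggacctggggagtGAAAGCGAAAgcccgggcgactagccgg
PSME3, chr17:42833147-42833396, forward strand: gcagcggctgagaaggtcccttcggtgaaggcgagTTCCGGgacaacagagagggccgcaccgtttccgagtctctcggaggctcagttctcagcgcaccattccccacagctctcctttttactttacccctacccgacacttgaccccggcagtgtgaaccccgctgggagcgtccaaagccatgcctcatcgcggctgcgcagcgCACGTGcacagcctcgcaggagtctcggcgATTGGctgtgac
PSMD6, chr3:64023495-64023744, reverse strand: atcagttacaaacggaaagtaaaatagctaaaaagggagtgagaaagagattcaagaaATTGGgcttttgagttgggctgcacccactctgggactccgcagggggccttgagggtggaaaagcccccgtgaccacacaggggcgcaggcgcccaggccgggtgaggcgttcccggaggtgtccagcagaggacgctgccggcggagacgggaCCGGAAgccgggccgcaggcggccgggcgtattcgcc

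In GENCODE 29 on GRCh38, PSMG4 spans chr6:3231403-3303373 on the forward strand, PSMB9 chr6:32844136-32859585 on the forward strand and PSMB8 chr6:32840717-32844703 on the reverse strand. PSMB10 spans chr16:67934502-67937087 on the reverse strand and PSME2 chr14:24143362-24147570 on the reverse strand. PSME3 spans chr17:42824385-42843758 on the forward strand and PSMD6 chr3:64010549-64024010 on the reverse strand. All of these genes are annotated as protein-coding. The RefSeq starts differ from the outer ends of these spans. The promoter stretches printed above therefore lie inside the spans, that of PSMB10 in part and the others wholly.

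Most catalytic and structural beta subunits of the core had a log2 ratio above 0. Of the 7 constitutive beta genes, 6 had one (5 under total-count scaling), where 49.3% of all genes tested did. Among the 7, 5 had an interval wholly above 0 and 0 had one below it. Of the 7834 genes of at least 10 CPM, 2349 had an interval above 0 and 2090 one below it. Their median was 0.19 (0.08 under total-count scaling). The group is short, with a median length of 918 bases, and all genes under 1000 bases had a median log2 ratio of 0.18. After the median of all genes of the same length class was taken off, the median of the group was 0.10. Of the 7 genes, 5 were then above 0. PSMB6, the subunit that cuts after acidic residues, had 5956 counts in siKAT7 and 5151 in siControl. Its log2 ratio was 0.31 (0.26 to 0.37), or 1.24-fold. PSMB7, the subunit that cuts after basic residues, had 6153 counts in siKAT7 and 5452 in siControl, a log2 ratio of 0.28 (0.22 to 0.33). These are the pair of constitutive beta genes called higher at 1.2-fold, and under total-count scaling both were short of it, at 0.20 for PSMB6 and 0.17 for PSMB7.

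PSMB5, which cuts after hydrophobic residues and is the main target of bortezomib, had 8667 counts in siKAT7 and 8124 in siControl. Its log2 ratio of 0.20 (0.15 to 0.24) stayed under 1.2-fold. The non-catalytic PSMB4 had 10078 counts in siKAT7 and 9509 in siControl, with a log2 ratio of 0.19 (0.15 to 0.23). PSMB3, also non-catalytic, had 8332 counts in siKAT7 and 7953 in siControl, with a log2 ratio of 0.17 (0.12 to 0.21). PSMB2 and PSMB1 stood apart from the other 5, with intervals that included 0. PSMB2 had 8094 counts in siKAT7 and 8440 in siControl, a log2 ratio of 0.04 (-0.07 under total-count scaling). PSMB1 had 5917 counts in siKAT7 and 6532 in siControl, a log2 ratio of -0.04 (-0.09 to 0.01).

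The tissue-specific beta genes were low in level and had the highest median log2 ratio of the subunit groups, over 3 genes tested. PSMB8, PSMB9 and PSMB10 replace PSMB5, PSMB6 and PSMB7 in the immunoproteasome, a form that interferon induces and that favours peptides presented on MHC class I. PSMB9 had 583 counts in siKAT7 and 443 in siControl, a log2 ratio of 0.50 (0.32 to 0.68), or 1.41-fold. PSMB10 had 535 counts in siKAT7 and 455 in siControl, a log2 ratio of 0.34 (0.15 to 0.52), which was 0.23 and short of 1.2-fold under total-count scaling. Both genes were called higher at 1.2-fold. PSMB8 had only 37.4 counts in siKAT7 and 24.8 in siControl, so that its log2 ratio of 0.66 had an interval of -0.10 to 1.46 and was not called. PSMB11, the beta subunit of the thymus, had 0 counts in both libraries.

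Neighbouring gene models touch this group. PSMB10 shares 644 exon bases with AC040162.1 on the same strand, which had 85.0 counts in siKAT7 and 123 in siControl. With those counts added, the log2 ratio of PSMB10 was 0.20, under 1.2-fold. PSMB8 and PSMB9 lie next to each other on opposite strands and share 139 exon bases, and PSMB8-AS1 (24.9 counts in siKAT7 and 8.49 in siControl) shares 618 with PSMB8 on the opposite strand and 174 with PSMB9 on the same strand. The sum over these 3 models, in which PSMB9 holds most counts, had a log2 ratio of 0.54, which says little of PSMB8 alone. Whether reads were counted by strand is not stated in the sources used here.

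Compared per gene length, the immunoproteasome genes were far below the genes whose products they replace in both libraries. The summed level of PSMB8, PSMB9 and PSMB10 in CPM per kilobase was 5.30% of that of PSMB5, PSMB6 and PSMB7 in siKAT7 and 4.72% in siControl. PSMB9 was at 7.93% of PSMB6 in siKAT7 and 6.97% in siControl, and PSMB10 was at 8.75% of PSMB7 in siKAT7 and 8.41% in siControl. PSMB8 was at 0.401% of PSMB5 in siKAT7 and 0.283% in siControl. For each pair alone the change lay within counting error. The ratio of counts within a pair, siKAT7 over siControl, was 1.14 for PSMB9 over PSMB6 (exact 95% interval 0.998 to 1.298), 1.04 for PSMB10 over PSMB7 (0.913 to 1.19) and 1.39 for PSMB8 over PSMB5 (0.812 to 2.41). For the summed counts it was 1.13 (1.03 to 1.23). With the longest annotated transcript as the length, the summed level was 3.40% of that of the constitutive genes in siKAT7 and 3.10% in siControl.

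The alpha subunits showed no common direction. Of the 7 tested, 3 had a log2 ratio above 0 and 4 below, with a median of -0.01. For 5 of them the interval included 0, as it did for 7269 of all 13217 genes tested. PSMA1 had 1275 counts in siKAT7 and 1703 in siControl, a log2 ratio of -0.32 (-0.42 to -0.21), and was called lower at 1.2-fold. PSMA7, the most abundant alpha gene per length, had 9225 counts in siKAT7 and 9055 in siControl, a log2 ratio of 0.13 (0.09 to 0.17), which was 0.02 under total-count scaling. PSMA4 had 668 counts in siKAT7 and 644 in siControl, a log2 ratio of 0.15 (-0.0035 to 0.31). PSMA5, the alpha gene of lowest level over both libraries, had 1906 counts in siKAT7 and 2035 in siControl, a log2 ratio of 0.01 (-0.10 under total-count scaling). PSMA2, PSMA3 and PSMA6 had log2 ratios from -0.11 to -0.01. PSMA8, the alpha subunit of the testis, had 2.20 counts in siKAT7 and 6.21 in siControl and was under the filter.

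The base of the regulatory particle also had members on both sides of 0. Among the 6 ATPases, 3 lay above 0 and 3 below, with a median log2 ratio of -0.04. PSMC6 had 133 counts in siKAT7 and 182 in siControl, a log2 ratio of -0.35 (-0.68 to -0.02), and was called lower at 1.2-fold. It was not called with a 99% interval, and it falls under a filter of 10 CPM; either leaves 5 proteasome genes called lower. PSMC1 had 583 counts in siKAT7 and 754 in siControl, a log2 ratio of -0.27 (-0.43 to -0.11), also called lower. The 13 pseudogene rows of PSMC1 had 115 counts in siKAT7 and 90.9 in siControl, and with them added the ratio of PSMC1 was -0.17, under 1.2-fold. PSMC3 had 5750 counts in siKAT7 and 5755 in siControl, a log2 ratio of 0.10 (0.05 to 0.15) that was -0.0063 under total-count scaling. PSMC2 had 328 counts in siKAT7 and 309 in siControl, with the highest ratio of the ATPases at 0.19 (-0.04 to 0.42). PSMC4 and PSMC5 had log2 ratios of 0.02 and -0.11.

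Of the base subunits without ATPase activity, PSMD2, a scaffold and a docking site for shuttle factors, had 8445 counts in siKAT7 and 10228 in siControl. Its log2 ratio was -0.17 (-0.22 to -0.13), under 1.2-fold. PSMD4, a ubiquitin receptor, had 6788 counts in siKAT7 and 6950 in siControl, a log2 ratio of 0.07 (-0.04 under total-count scaling). PSMD1, the other scaffold, had 274 counts in siKAT7 and 300 in siControl, a log2 ratio of -0.03 (-0.27 to 0.21).

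In the lid, 6 of 8 genes had a log2 ratio below 0, with a median of -0.06. PSMD6 had the lowest ratio of all 46 genes. It had 330 counts in siKAT7 and 486 in siControl, a log2 ratio of -0.46 (-0.66 to -0.25), or 1.37-fold lower in siKAT7, and was called at 1.2-fold. PSMD8, whose yeast counterpart Rpn12 joins the lid last, lay on the other side with 8975 counts in siKAT7 and 8340 in siControl, a log2 ratio of 0.21 (0.16 to 0.25), under 1.2-fold. PSMD12 had 739 counts in siKAT7 and 737 in siControl, a log2 ratio of 0.11 (just below 0 under total-count scaling). PSMD14, the deubiquitinase of the lid, had 1246 counts in siKAT7 and 1421 in siControl, a log2 ratio of -0.09 (-0.20 to 0.02). PSMD3, PSMD7, PSMD11 and PSMD13 had log2 ratios from -0.21 to -0.01. Over base and lid together, 11 of 17 genes were below 0. Of the 17, 7 had intervals below 0 and 3 had intervals above it. Of all 13217 genes tested, 2914 had intervals below 0 and 3034 above it. Among the 7834 genes of at least 10 CPM these numbers were 2090 and 2349. At 1.2-fold, 0 of the 17 were called higher and 3 lower, where 13.1% of all genes were called higher and 13.4% lower.

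Of the genes of alternative activators, PSME3 alone was called at 1.2-fold, as lower in siKAT7. PSME1 and PSME2 form the activator that interferon induces, whereas PSME3 forms a related activator in the nucleus. PSME3 had 1947 counts in siKAT7 and 2780 in siControl, a log2 ratio of -0.41 (-0.50 to -0.33). PSME2 had 2884 counts in siKAT7 and 2592 in siControl, a log2 ratio of 0.26 (0.18 to 0.33), which was just under 1.2-fold. Its partner PSME1 had 1874 counts in siKAT7 and 1967 in siControl, a log2 ratio of 0.03 (-0.06 to 0.12). PSME4, an activator of the nucleus, had 363 counts in siKAT7 and 330 in siControl, a log2 ratio of 0.24 (0.02 to 0.46). The inhibitor PSMF1 had a log2 ratio of -0.01.

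PSME2 shares 216 exon bases with RNF31 on the opposite strand, which had 929 counts in siKAT7 and 1363 in siControl. The sum of both genes had a log2 ratio of 0.05. PSME3 shares 300 exon bases with BECN1 on the opposite strand (674 counts in siKAT7 and 824 in siControl), and that sum had a log2 ratio of -0.36.

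The assembly chaperones held both the gene past 1.5-fold and a gene called lower. PSMG4, which pairs with PSMG3 on the growing alpha ring, had 410 counts in siKAT7 and 279 in siControl, a log2 ratio of 0.66 (0.43 to 0.88), or 1.58-fold. Under total-count scaling it was 0.55, short of 1.5-fold. Its model shares 1388 exon bases with SLC22A23 on the opposite strand, a transporter gene that had 513 counts in siKAT7 and 425 in siControl and a log2 ratio of 0.37, and 174 bases with TUBB2B. The sum over these models had a log2 ratio of 0.37, also short of 1.5-fold. PSMG3, the partner of PSMG4, had 1791 counts in siKAT7 and 1713 in siControl, a log2 ratio of 0.17 (0.07 to 0.26).

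PSMD10, known as gankyrin, a chaperone of the base and an oncoprotein, had 424 counts in siKAT7 and 555 in siControl. Its log2 ratio was -0.29 (-0.47 to -0.10), called lower at 1.2-fold. PSMD5, another chaperone of the base, had 230 counts in siKAT7 and 276 in siControl, a log2 ratio of -0.16 (-0.42 to 0.10). PSMG1, PSMG2 and PSMD9 had log2 ratios of 0.14, -0.15 and 0.05.

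Levels of the subunits were far from equal in both libraries. Per length, the 46 genes ran from 1.47 (PSMB8) to 484 (PSMB4) CPM per kilobase in siKAT7, with a median of 32.7, and from 0.905 (PSMB8) to 429 (PSMB3) in siControl, with a median of 36.8. The 14 constitutive core genes, whose proteins occupy the barrel in equal numbers, spanned 21.99-fold in siKAT7 and 19.57-fold in siControl. Among these, the beta genes had a median of 319 CPM per kilobase in siKAT7 and 301 in siControl, and the alpha genes one of 26.93 in siKAT7 and 24.96 in siControl. The lowest core genes were PSMA2, at 22.01 CPM per kilobase in siKAT7 and 22.64 in siControl, and PSMA5, at 22.03 in siKAT7 and 21.92 in siControl. In the base, PSMC6 (3.69 CPM per kilobase in siKAT7 and 4.70 in siControl) and PSMC2 (4.74 in siKAT7 and 4.16 in siControl) lay far below PSMC3 (164 in siKAT7 and 153 in siControl). These levels rest on the length deposited for each gene, which equalled the longest annotated transcript for 2 of the 48 genes.

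**Figure D2:**
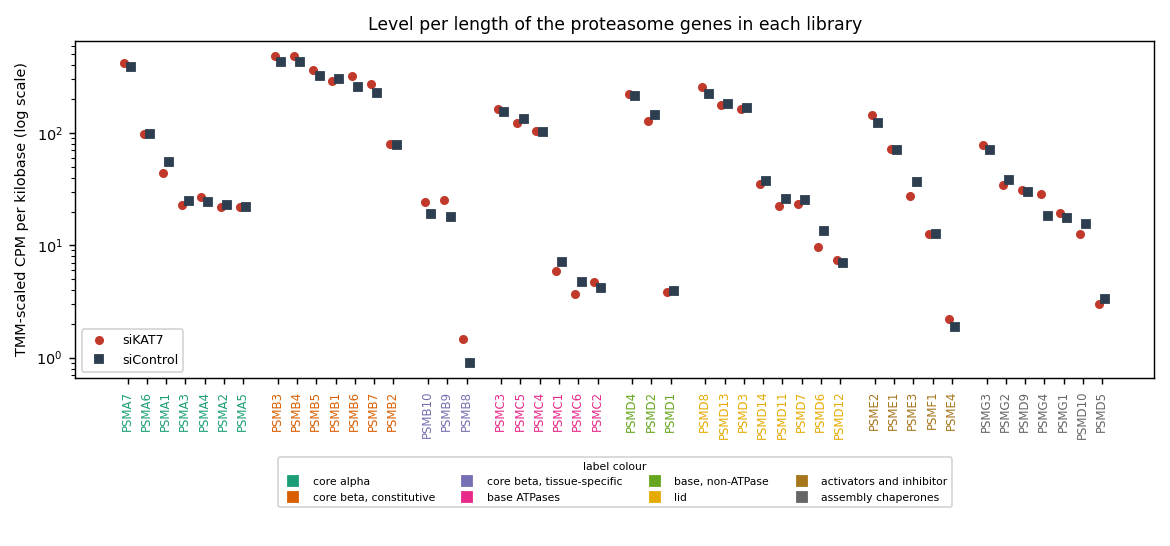
Level of each of the 46 proteasome genes tested in TMM-scaled CPM per kilobase (log scale), with siKAT7 as circles left of siControl as squares, 1 library each. The gap between genes of one subunit group is much wider than the gap between the libraries, and the constitutive beta genes reach the highest levels, up to 484 CPM per kilobase for PSMB4 in siKAT7.

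The beta subunits differed from the other proteasome genes in gene length as well as in ratio. Over both beta groups 9 of the 10 genes tested were above 0 (8 under total-count scaling), with a median log2 ratio of 0.24, against 16 of 36 and a median of -0.01 for the other proteasome genes. At 1.2-fold, 4 beta genes were called higher and 0 lower, against 1 higher and 6 lower among the other 36, where 13.1% of all genes were called higher and 13.4% lower. The beta genes are short, with a median length of 980.5 bases against 2892 for all genes tested. All genes under 1000 bases had a median log2 ratio of 0.18 (1204 genes), those of 1000 to 1500 bases 0.09 (1231 genes), and those of 4000 bases or more -0.06 (4274 genes). Among proteasome genes under 1000 bases, the 6 beta genes had a median of 0.23 and the 5 others 0.13. Among those of 1000 to 1500 bases, the 3 beta genes had a median of 0.50 and the 10 others -0.08. The 3 are PSMB9, whose own ratio is this median, PSMB8, whose interval included 0, and PSMB5. Only PSMB5 is constitutive, and it was at 0.20.

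After the median of all genes of the same length class was taken off each ratio, the median was 0.10 for the beta genes, with 8 of 10 above 0, and -0.05 for the other genes, with 15 of 36 above 0. The alpha genes, also short with a median length of 1094 bases, then had a median of -0.13. Of the 4 beta genes called higher, PSMB9 was then at 0.41, and PSMB6 (0.13), PSMB7 (0.10) and PSMB10 (0.16) were under 1.2-fold. The median over all 46 proteasome genes was then -0.0016. Across the 46 genes Spearman's rho of the log2 ratio was -0.41 with length and 0.42 with the GC content of the longest transcript, against -0.20 (13217 genes) and 0.16 (13136 genes) over all genes. These describe genes of the same pair of libraries. The part of length or GC content in the ratios of the beta genes was not tested.

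**Figure D3:**
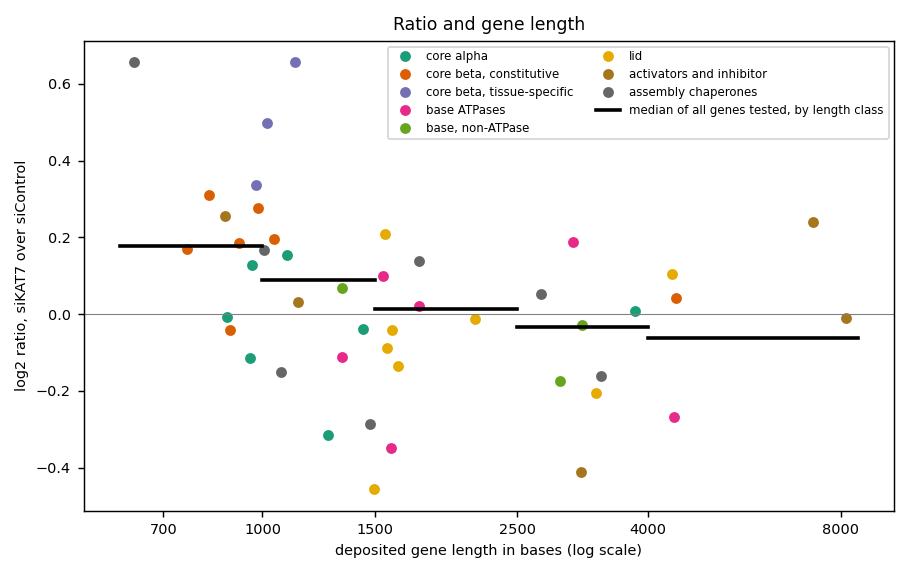
Log2 ratio, siKAT7 over siControl, of the 46 proteasome genes tested against deposited gene length in bases (log scale), coloured by subunit group, 1 library per group. Black bars are the medians of all genes tested in 5 length classes, from 0.18 under 1000 bases to -0.06 from 4000 bases, and the beta genes lie under 1500 bases except PSMB2.

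The promoters of the proteasome genes held several known elements more often than the promoters of all genes. TGACNNNGC was found in 15 of 51 entries (29.4%) and in 13.3% of all 35116 entries. CCGGAA was found in 22 entries (43.1%, against 17.2%) and the ISRE core in 7 (13.7%, against 3.57%). Among entries of protein-coding genes these 3 elements were found in 13.8%, 21.2% and 3.17%. CCAAT was found in 39.2% of the proteasome entries against 34.6% of all, TTCNNNGAA (bound by STAT factors) in 15.7% against 7.66%, TGANTCA (bound by AP-1) in 5.88% against 7.71%, CACGTG in 5.88% against 7.26% and TGACGTCA (bound by CREB) in 0 against 1.85%. Both strands were searched, TGACNNNGC and TGANTCA can overlap, and a match of letters is a description, not a binding site.

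The 7 genes with the ISRE core in an entry were PSMA4, PSMB4, PSMB8, PSMB10, PSME1, PSME2 and PSMG4, of which 3 are beta genes. All 7 had a log2 ratio above 0, from 0.03 to 0.66 with a median of 0.26. Under total-count scaling 6 of them were above 0. All 7 are short, at 629 to 1136 bases, and after length-class medians of all genes (given above) were taken off, 6 were above 0 (PSME1 at -0.06) with a median of 0.08, against a median of -0.05 and 14 above 0 for the 33 tested genes without the element. Of the 33 tested genes whose entries lack it, 13 were above 0 (7 under total-count scaling) and the median was -0.03. This set was looked at after the ratios were known. Over all tested genes with an entry, the 346 with the element had a median log2 ratio of 0.01 and 50.6% above 0, and the 9403 without it a median of -0.01 and 48.4% above 0. In PSMG4, PSMB10 and PSME2 the match begins 33, 21 and 28 bases before the start and reads GAAAGCGAAA in all 3, as shown in the sequences above. In PSMB8 the match begins 4 bases before the start and runs past it, and in PSME1 it begins 5 bases after the start. The 15 genes with TGACNNNGC had a median log2 ratio of 0.05 with 10 above 0 (6 under total-count scaling). The 25 without it had a median of -0.04 with 10 above 0 (7 under total-count scaling). After length-class medians were taken off, the medians were 0.01 with it and -0.10 without it. Over all tested genes with an entry, 49.7% of those with TGACNNNGC and 48.1% of those without it were above 0. The medians of these were -0.0026 and -0.013. For CCGGAA the order was the other way, with a median of -0.04 in 21 genes with it and 0.03 in 19 without. For TTCNNNGAA, 3 of 7 genes with it were above 0, with a median of -0.01. Without it 17 of 33 were above 0, with a median of 0.01. For CCAAT, 10 of 19 genes with it and 10 of 21 without it were above 0.

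Genes around the proteasome were described in 4 lists, beside the same background shares at 1.2-fold as above. Of 14 other genes of the complex, 9 had a log2 ratio above 0, with a median of 0.07. PITHD1, which binds the proteasome, was called higher at 0.33 (1888 counts in siKAT7 and 1614 in siControl), but was short of 1.2-fold under total-count scaling, at 0.22. UCHL5, a deubiquitinase of the base, was called lower at -0.57 (173 counts in siKAT7 and 275 in siControl). UBE3C, a ligase that extends ubiquitin chains at the proteasome, was called lower at -0.40 (956 counts in siKAT7 and 1355 in siControl). PAAF1, which binds free ATPases, was called lower at -0.38 (152 counts in siKAT7 and 212 in siControl). POMP, the maturation factor of the core, had 2538 counts in siKAT7 and 2277 in siControl, a log2 ratio of 0.26 (0.18 to 0.34), just under 1.2-fold. ADRM1, a ubiquitin receptor, SEM1, a lid subunit, and AKIRIN2, which brings proteasomes into the nucleus, had log2 ratios of 0.22, 0.25 and 0.25, all under 1.2-fold. Below 0 and also not called were FBXO7, at -0.19 (-0.29 to -0.10), and UBLCP1, at -0.05 (-0.57 to 0.46).

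The second list held NFE2L1, the transcription factor that induces proteasome genes when proteasome activity is low, with its processing enzymes, relatives and partners. NFE2L1 had 5998 counts in siKAT7 and 6601 in siControl, a log2 ratio of -0.04 (-0.09 to 0.01). Of the 10 genes, 4 were called higher (2 under total-count scaling) and 1 lower. MAFF, a small MAF protein that pairs with NFE2L1 and NFE2L2 on DNA, had 5133 counts in siKAT7 and 2977 in siControl, a log2 ratio of 0.89 (0.82 to 0.95). It was the only one of the 10 past 1.5-fold, at 1.85-fold. MAFK, another small MAF protein, was at 0.37, NFE2L2, the oxidative stress factor also known as NRF2, at 0.38 and SEL1L, an adaptor of the ubiquitin ligase SYVN1 in the endoplasmic reticulum, at 0.44. NFE2L3 was called lower at -0.30 (372 counts in siKAT7 and 493 in siControl).

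Of 10 shuttle factors and parts of the VCP unfoldase, 9 passed the filter. Of these, 7 were below 0 and 2 above, where 49.3% of all genes tested were above. The 9 genes are long, with a median length of 3868 bases. After length-class medians were taken off, 5 of them were above 0 and 4 below, with a median of 0.00038. VCP, which pulls ubiquitylated proteins out of complexes, was called lower with 3576 counts in siKAT7 and 4835 in siControl, a log2 ratio of -0.33 (-0.40 to -0.27). DDI1 had 0 counts in both libraries. Of the 6 genes of antigen presentation and interferon response, 0 were called in either direction, with a median log2 ratio of 0.0076. Of the 6, 3 were above 0 and 3 below. TAP1, the peptide transporter whose gene lies beside PSMB9, had a log2 ratio of 0.16, B2M 0.12 and IRF1 0.17. TAP2 had one of -0.20, NLRC5 -0.12 and TAPBP -0.11.

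**Figure D4:**
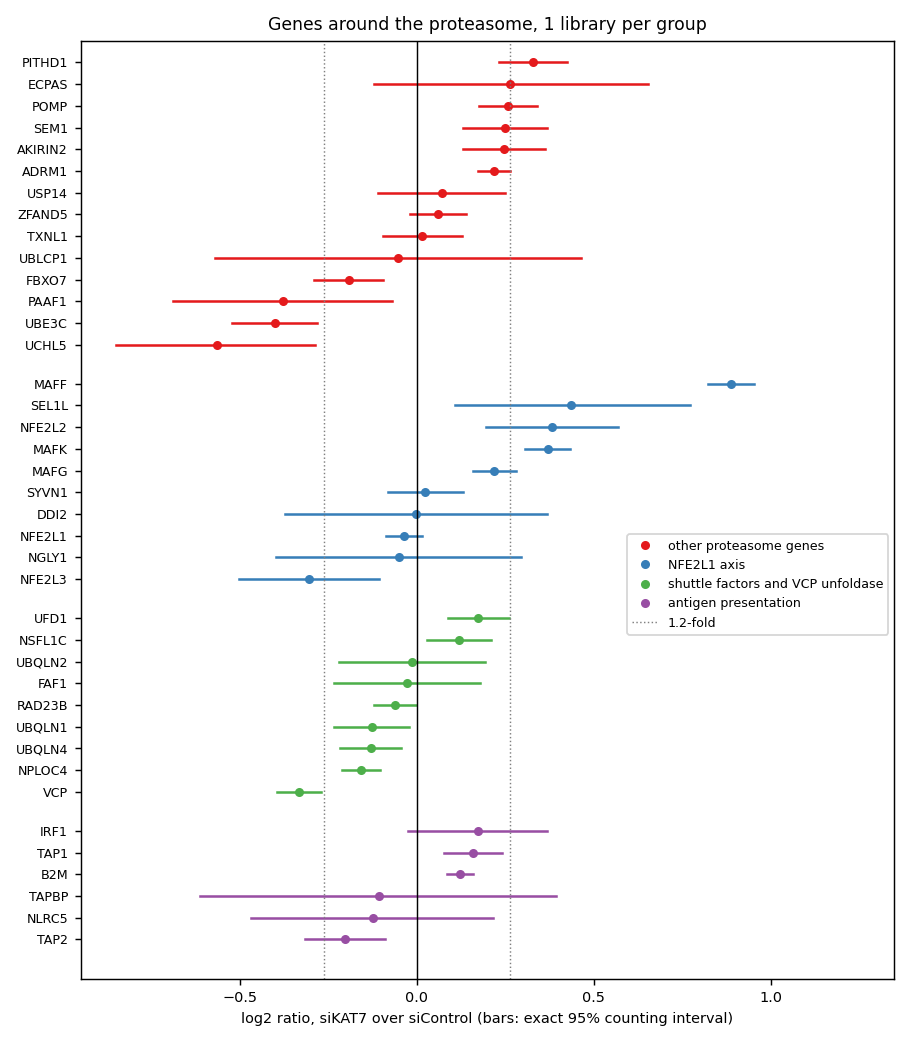
Log2 ratio, siKAT7 over siControl, of the tested genes in 4 lists around the proteasome, with 1 library per group. Points are ratios, bars are exact 95% counting intervals and dotted lines mark 1.2-fold; MAFF lies farthest to the right at 0.89 and UCHL5 farthest to the left at -0.57.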

How the data were processed

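RNA-seq of 2 libraries was used, 1 per group. The count table holds expected counts per gene, deposited by the authors and not rounded. Per the submitters' processing notes they come from RSEM 1.3.3 on GRCh38.p13. Neither an aligner nor an annotation is stated in the sources used here. Both columns occur a second time in the table, with 0 cells that differ, and 1 copy was used. A second deposited table gives the authors' fold (a ratio), its log2 and p-values; only the log2 fold was used, as an alternative.

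Expected counts were rounded to whole numbers. The 331 rows with no gene name (1.67% of counts in siKAT7 and 1.11% in siControl) stayed out. Libraries were scaled with TMM factors from edgeR 4.0.16 in R 4.3.3 (0.964 in siKAT7 and 1.04 in siControl). Log2 ratios used a prior count of 0.5 on CPM, and exact Clopper-Pearson 95% intervals came from the split of a gene's counts between libraries (SciPy 1.17.1). These intervals cover the counting error of reads only. PCR reads are not independent molecules, so the intervals can be too narrow even for that error. DESeq2 1.42.0 gave alternative size factors. The expression filter was a mean of 1 CPM or more. Levels per length used the deposited gene length in place of the longest transcript that had been planned. Coordinates, GC content and exon overlaps came from GENCODE 29 (GRCh38), and promoters from RefSeq (GRCh38.p14). The procedure was tested on simulated counts that held counting error only, so the test cannot speak to variation between libraries.

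The proteasome genes and all lists were chosen with earlier results of these data known. Some genes of these lists are not reported here. The rule for named genes took KAT7, every proteasome gene past 1.5-fold, the genes of highest and lowest log2 ratio and level in each subunit group, the 6 catalytic beta genes, and in the other lists NFE2L1, POMP and genes past 1.2-fold. Genes named beyond this rule were chosen after their values were seen. Alternatives were other scaling, prior count, filters, interval rules, the authors' log2 fold, lengths, and counts of pseudogenes and overlapping models added to a gene.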

Additional observations from a re-analysis of the deposited data

How the results depend on the processing

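No paired analysis was possible because each group had 1 library, and for the same reason no replicate could be left out. Of 537 recomputed values, 449 stayed within 1.5 times (counts and shares) or within a counting tolerance (ratios and medians). For medians the tolerance was 0.092, taken from the intervals of single genes and not from the median itself. Of the 449, 3 lay on the other side of 0. These were PSMD12 under total-count scaling and with the authors' log2 fold, and PSMA5 with DESeq2 size factors. Some values could not move, since pseudogenes or overlapping models were also added for genes that have none. Under total-count scaling, 20 ratios of named genes other than KAT7 stayed within tolerance and 20 moved beyond it. A further 2, PSMC3 and PSMD4, had intervals that excluded 0 and changed sign. Length-class centring, the restriction to whole counts, the longest transcript and the added overlapping models were chosen after seeing the data, as was adding pseudogenes to the counts of called genes. The causes of the moves below were not tested, except that total-count scaling shifts every log2 ratio by about -0.11.

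The median log2 ratio of the proteasome genes was -0.080 under total-count scaling, -0.080 with the authors' log2 fold and -0.0016 with length-class centring. Total-count scaling and the authors' fold gave medians that differed by less than the last digit printed for each group. These were -0.11 for alpha, 0.079 for constitutive beta, 0.39 for tissue-specific beta, -0.15 for ATPases, -0.14 for other base genes, -0.17 for the lid, -0.075 for activators and -0.056 for chaperones. With centring alpha was -0.13. Among genes with whole counts in both libraries alpha was 0.068, ATPases 0.061, activators -0.19 and chaperones -0.15, and with a filter of 10 CPM the ATPases were 0.022. PSMC3 was -0.0063 and PSMD4 -0.039 under total-count scaling and with the authors' fold.

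Proteasome genes at least 1.5-fold higher numbered 0 under total-count scaling, 0 with the authors' fold, 0 with models on either strand added and 2 with no interval condition (PSMB8 joined). Those 1.2-fold higher numbered 2 under total-count scaling and 2 with the authors' fold. Among other proteasome genes, 0 were 1.2-fold higher under either of these and 2 with no interval condition, and 1 was lower at 10 CPM. In the NFE2L1 list 2 were higher under total-count scaling. Under total-count scaling and with the authors' fold, 2 shuttle genes were lower, and 1 antigen presentation gene was lower. The summed level of PSMB8, PSMB9 and PSMB10 was 3.40% of that of PSMB5, PSMB6 and PSMB7 in siKAT7 and 3.10% in siControl with the longest transcript. Genes of few counts such as PSMB8 are limited by depth.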
